A study of Mus musculus with 2 samples.

Results

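*Mitf*, the 3 related factors *Tfeb*, *Tfec* and *Tfe3*, the receptor gene *Kit* and 5 pigment genes (*Pmel*, *Dct*, *Tyr*, *Tyrp1* and *Mlana*) were followed in lingual epithelial cells of newborn mice. These 10 genes, of 21628 entries in the deposited table, were chosen by name, because *Mitf* was far higher in GFP-high cells while the pigment genes were low or leaned to GFP-low cells. The FPKM that chose them are therefore given as a description. RNA was sequenced from Sox2GFP pups at P0, whose GFP reports *Sox2* expression. Epithelium of pups from several litters was peeled, dissociated and pooled, and about 100000 cells per population were sorted as GFP-high (1 library) or GFP-low (1 library). Cells that took up DAPI or fluoresced in the red channel were gated out. With a single library per population no spread can be estimated, so values are compared without p-values. Where a pair of values is given, GFP-high cells come first.

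MITF, TFEB, TFEC and TFE3 bind DNA as homodimers or as heterodimers with each other, through a basic helix-loop-helix and leucine zipper, at E-box motifs. MITF is best known as the factor that specifies melanocytes and switches on pigment genes, and it is also needed in mast cells, osteoclasts and the retinal pigment epithelium. TFEB and TFE3 are widely expressed and activate lysosome and autophagy genes when nutrients are scarce. KIT, the receptor for stem cell factor, supports the survival of melanoblasts, mast cells and germ cells. Melanoblasts derive from the neural crest, in part by way of Schwann cell precursors along nerves.

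Windows from 250 bases before to 50 bases after each RefSeq start were searched for TCATGTG, the core of the M-box to which MITF binds. Windows were matched for 8 of the 10 genes, all but *Pmel* and *Mlana*. The motif was found in the windows of *Tyrp1*, *Tyr* and *Dct* and in none of the windows of *Mitf*, *Tfeb*, *Tfec*, *Tfe3* and *Kit*, searching either strand. Of 32817 windows of all genes, 3.78% hold it. The 6-base E-box CATGTG, which lies inside it, is in 14.2% of all windows and in the same 3 pigment genes, and the E-box CACGTG is in 7.15% of all windows and in no window of the 8 genes with an entry. The stretches around TCATGTG are shown because they are what these pigment genes share, read in the direction that gives TCATGTG, with that motif in capitals (GRCm38, RefSeq).
*Tyrp1*, chr4:80834155-80834183, plus strand, in an annotated exon: tggggagggagTCATGTGctgcctagtag
*Tyr*, chr7:87493517-87493545, minus strand, upstream of the gene: gaaaaagttagTCATGTGctttgcagaag
*Dct*, chr14:118052380-118052408, minus strand, upstream of the gene: tgcacttagggTCATGTGctaacaaagag
*Dct*, chr14:118052461-118052489, plus strand, upstream of the gene: ctttattgggcTCATGTGtcccagccaag
A match is a description of the sequence and shows no binding in these cells.

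*Mitf* itself (ENSMUSG00000035158, mm10 chromosome 6, 97807052 to 98021349, plus strand) has 8 annotated transcripts, of which 6 are typed as protein-coding, and 3 starts in RefSeq. The starts lie 0.006, 122.8 and 184.7 kb from the first annotated base. The last of them begins the short M form that melanocytes make, and its promoter is known to be driven by SOX10, PAX3, LEF1 and CREB. The 250 bases before this start lie in an intron of the longer transcripts. They are shown because they are the pigment cell promoter of the gene, with the letters CTTTGAT (a LEF/TCF core, forward at -205) and TGACGTC (a CREB core, forward at -153 and reverse at -152, overlapping each other) in capitals.
*Mitf*, chr6:97991533-97991782, plus strand: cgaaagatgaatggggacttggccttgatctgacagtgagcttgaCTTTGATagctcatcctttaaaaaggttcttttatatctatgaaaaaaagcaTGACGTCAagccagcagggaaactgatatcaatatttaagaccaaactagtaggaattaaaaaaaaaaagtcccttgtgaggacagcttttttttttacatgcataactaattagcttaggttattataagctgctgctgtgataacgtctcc
Of all windows, 3.73% hold CTTTGAT and 3.21% hold TGACGTC. Neither was found in the other *Mitf* windows. The deposited FPKM is a single value per gene, so it does not tell which start was used in either population.

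**Figure D1:**
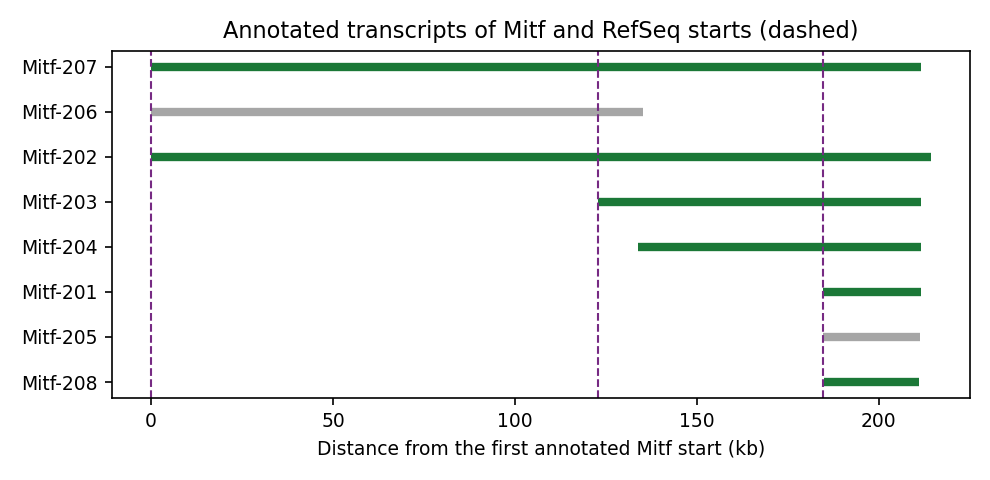
Annotated transcripts of *Mitf* as bars by distance in kb from the first annotated start (green, protein-coding; grey, other types), with the 3 RefSeq starts dashed. The last start, at 184.7 kb, is that of the M form. The deposited FPKM is a single value for the gene in each library and is not split by transcript.

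*Mitf* had 17.2 FPKM in GFP-high against 1.24 in GFP-low cells, a ratio of 13.8 (3.79 on the log2 scale). FPKM measures reads relative to transcript length and library size. A gene was called when its higher value was at least 5 FPKM and the ratio at least 1.5, and the *Mitf* ratio ranked 16 among the 1020 genes called higher in GFP-high cells. In GFP-high cells 65.4% of entries had a lower FPKM than *Mitf*, against 43.0% in GFP-low cells. None of the 6320 windows of 50 nt in its transcripts occurs in a transcript of another gene. If the rule asked for 5 FPKM in each population, *Mitf* would not be called, because of its low level in GFP-low cells. With 1 added to each FPKM, its log2 ratio was 3.02.

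Of the 10 genes, *Mitf* alone was called in either direction, against 9.16% of all 21590 entries with a number in both libraries. Of these entries, 4.72% were called higher in GFP-high cells and 4.44% higher in GFP-low cells. Among entries at 5 FPKM or more in at least 1 library, the shares were 9.48% and 8.9%. Of the members, 4 reached 5 FPKM (*Mitf*, *Tfeb*, *Tfe3* and *Kit*). Of all calls, 51.6% were higher in GFP-high cells, and 39.8% once each library was divided by its FPKM sum (TPM). *Mitf* stayed called on that scale, at a log2 ratio of 3.69. In sorted pools, a higher level may come from more cells that use a gene or from more RNA per cell, and these cannot be told apart.

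*Tfeb* and *Tfe3*, the family members that act on lysosomes, were well expressed at similar levels in both populations. *Tfe3* (chromosome X, 7762560 to 7775202) had the highest FPKM of all 10 genes, 67.3 and 72.3 FPKM, a log2 ratio of -0.10. *Tfeb* (chromosome 17, 47737030 to 47792419) had 45.8 and 47.8 FPKM, a log2 ratio of -0.06. Over entries at 5 FPKM or more in either library the median log2 ratio was -0.04, so both lay within 0.1 of the typical gene. *Tfec*, a family member best known from macrophages, had 0.02 and 0.07 FPKM. At the depth that low FPKM point to, these correspond to about 2 and 7 reads. The GFP-low/GFP-high ratio of *Tfec* was 3.50, with an exact 95% counting interval of 0.562 to 29.1. *Mitf* thus made up 13.2% of the summed FPKM of the 4 factors in GFP-high cells (130.3 FPKM) and 1.02% in GFP-low cells (121.4 FPKM).

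**Figure D2:**
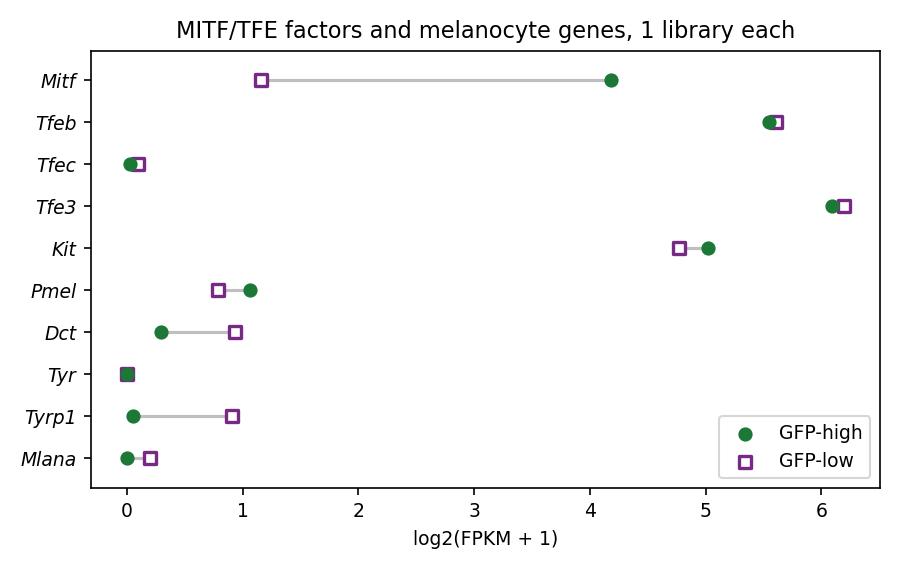
Level of each of the 10 genes as log2(FPKM + 1) in the GFP-high library (filled circles) and the GFP-low library (open squares), joined by a line. Only *Mitf* shows a wide gap with the GFP-high library above, 17.2 against 1.24 FPKM. *Tfeb*, *Tfe3* and *Kit* lie close together in the 2 libraries, and *Tyr* is at 0 in both.

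*Kit* (chromosome 5, 75574916 to 75656722) had 31.4 and 26.2 FPKM. The ratio of 1.20 was under the rule, and on the TPM scale the log2 ratio moved from 0.26 to 0.16. *Kit* was thus at a higher FPKM than *Mitf* in both populations, without the difference between them that *Mitf* had. Of 7 matched genes for ligands that act on melanocyte receptors, 1 was called, *Edn1*, with 20.4 and 12.2 FPKM. Among all entries, 9.16% were called in either direction. *Kitl*, which encodes the KIT ligand, had 12.3 and 10.7 FPKM. *Wnt3a*, a Wnt ligand that promotes melanocyte fate, had 14.4 and 13.0 FPKM. *Edn3*, the endothelin that expands melanoblasts, was at 0.77 and 0.18 FPKM, and *Hgf* and *Fgf2* were under 1 FPKM in both. *Ednrb*, which encodes the endothelin receptor of melanoblasts, was higher in GFP-low cells, with 0.69 and 19.9 FPKM.

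The 5 pigment genes were at or under 1.09 FPKM in both populations and summed to 1.36 and 2.67 FPKM. *Pmel*, the amyloid protein that forms the fibrils of melanosomes, was the highest of them in GFP-high cells, with 1.09 FPKM against 0.73 in GFP-low cells. Its GFP-high/GFP-low ratio was 1.49. *Dct*, an enzyme of eumelanin synthesis, had 0.23 and 0.91 FPKM, about 20 and 95 reads. Its GFP-low/GFP-high ratio was 3.96.

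*Tyrp1*, the enzyme that follows DCT in eumelanin synthesis, leaned most to GFP-low cells, with 0.88 FPKM against 0.04 in GFP-high cells. These values correspond to about 71 reads in GFP-low and 3 reads in GFP-high cells, and the GFP-low/GFP-high ratio of 22.0 had a counting interval of 6.56 to 99.1. *Mlana*, a melanosome membrane protein gene, was listed at 0 in GFP-high cells and at 0.15 FPKM in GFP-low cells, about 3 reads. *Tyr*, the rate-limiting enzyme of melanin synthesis, was listed at 0 in both. *Pmel* therefore leaned one way and *Dct*, *Tyrp1* and *Mlana* the other, and none of the 5 reached the minimum of 5 FPKM. The intervals of *Tfec* and *Tyrp1* are given because they rest on 2 or 3 reads in a library. They treat approximate reads as counts, cover counting error only and test nothing, since these FPKM chose the genes. Between 1.20% and 2.50% of the 50-nt windows of *Tyr*, *Dct* and *Pmel* occur in a transcript of another gene, and none of *Tyrp1* or *Mlana*.

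**Figure D3:**
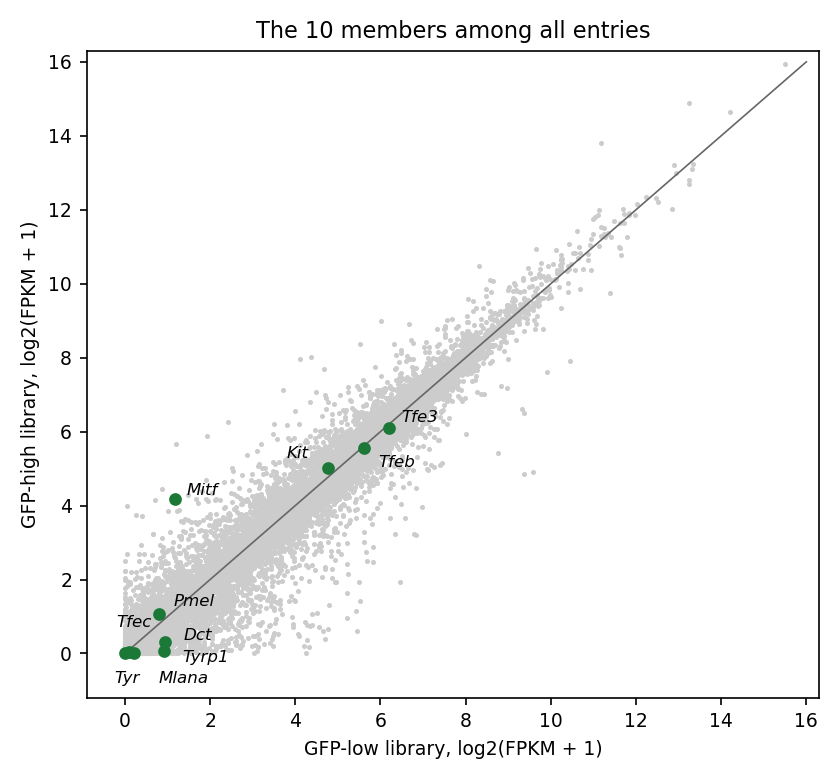
All entries as grey points by log2(FPKM + 1) in the GFP-low library (x axis) and the GFP-high library (y axis), with the line of equality and the 10 genes in green. *Mitf* stands above the cloud, *Tfe3*, *Tfeb* and *Kit* lie near the line, and *Dct* and *Tyrp1* lie under it near the origin.

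Ordered by level, *Tfe3*, *Tfeb*, *Kit* and *Mitf* led in this order in both populations. In GFP-high cells they were followed by *Pmel*, *Dct*, *Tyrp1* and *Tfec*, and in GFP-low cells by *Dct*, *Tyrp1*, *Pmel*, *Mlana* and *Tfec*. Without replicates, neighbours in these orders cannot be separated by a spread. The step from *Mitf* to the next gene was from 17.2 to 1.09 FPKM in GFP-high cells and from 1.24 to 0.91 FPKM in GFP-low cells.

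Of 9 other genes with a known role in pigment cells and an entry, 1 was called, against 9.16% of all entries. *Bace2*, a protease that processes PMEL, had 8.10 and 1.49 FPKM, a ratio of 5.44. *Trpm1*, a channel gene known as a MITF target, had 7.72 and 9.35 FPKM. The transporter genes of the melanosome were near 0. *Slc45a2* had 0.05 and 0.02 FPKM, *Oca2* had 0.29 FPKM in GFP-high cells and was listed at 0 in GFP-low cells, and *Slc24a5* was listed at 0 in both, as was the melanosomal receptor gene *Gpr143*. *Slc7a11*, the cystine transporter gene that affects the type of melanin made, had 0.45 and 2.83 FPKM, under the minimum, with a GFP-low/GFP-high ratio of 6.29. The median difference of the list in log2(FPKM + 1) was 0.08, against -0.02 over all entries above 0 in either library.

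Transcription factors of the neural crest and of melanoblasts, listed with *Ednrb*, were all lower in GFP-high cells, the opposite direction to *Mitf*. Of 9 such genes, 7 reached 5 FPKM, 5 were called higher in GFP-low cells and none in GFP-high cells. Of all entries at 5 FPKM or more in at least 1 library, 8.9% and 9.48% were called in these directions. *Sox10*, which activates *Mitf* and *Dct* in the neural crest, had 0.51 and 42.7 FPKM. *Foxd3*, a neural crest factor that represses *Mitf*, had 0.12 and 19.0 FPKM, and *Zeb2* had 0.68 and 19.2 FPKM. *Lef1*, the Wnt effector, was closer, with 17.2 and 31.5 FPKM. *Pax3* was under 1 FPKM in both, at 0.33 and 0.71. *Tfap2a* (72.1 and 84.8 FPKM) and *Snai2* (44.3 and 54.8 FPKM), which epithelial cells also express, were not called.

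Mast cells, in which MITF and KIT also act, were followed by 9 markers, of which 7 were higher in GFP-high cells. The 3 called (4.72% of all entries were called in this direction) reached 5 FPKM in GFP-high cells only, and 0 were called when 5 FPKM was asked for in each library. *Cpa3*, the mast cell carboxypeptidase, had 5.89 and 0.99 FPKM, *Mcpt4*, a chymase, 7.11 and 1.20 FPKM, and *Tpsb2*, a tryptase, 10.7 and 2.35 FPKM, with ratios between 4.53 and 5.95. The value of *Tpsb2* is uncertain, since it may share reads with its close copy *Tpsab1* (2.86 and 0.82 FPKM). *Cma1* (4.55 and 0.80 FPKM) and *Hdc*, which makes histamine (3.97 and 0.38 FPKM), were under the minimum. Of the subunits of the IgE receptor, *Ms4a2* was listed at 0 in GFP-high and at 0.01 FPKM in GFP-low cells. *Fcer1a* was at 0.05 FPKM and 0, so its place among the 7 rests on about 1 read. *Gata2* had 0.39 and 0.45 FPKM. The 9 markers summed to 35.5 and 7.0 FPKM. *Mitf* had 17.2 and 1.24 FPKM, and *Kit* had 31.4 and 26.2 FPKM. The part of mast cells in the *Mitf* value was not tested.

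Markers of the Schwann lineage leaned to GFP-low cells. All 11 markers, 2 of which (*Sox10* and *Foxd3*) are also among the neural crest and melanoblast genes above, were lower in GFP-high cells. They summed to 98.4 and 380.2 FPKM. Of the 11, 10 reached 5 FPKM and 9 were called higher in GFP-low cells. The share called in this direction among all entries at 5 FPKM or more in at least 1 library was 8.9%. *Gfra3* and *Cdh19*, which mark Schwann cell precursors, had 0.28 and 18.4 FPKM and 0.12 and 7.68 FPKM. *Erbb3*, with 60.3 and 66.9 FPKM, and *S100b*, with 0.12 and 3.44 FPKM, were not called. The part of Schwann lineage cells in the values of the pigment genes was not tested. Of 10 macrophage and osteoclast markers, 1 reached 5 FPKM and none was called, against 9.16% of all entries, and their sums were 16.8 and 19.7 FPKM. *Cd68* made up most of this, with 14.0 and 15.3 FPKM, while the leukocyte gene *Ptprc* had 0.06 and 0.02 FPKM. Of 7 keratinocyte markers, 3 were called higher in GFP-high cells (*Krt13*, *Epcam* and *Sox2*). The share among all entries at 5 FPKM or more in at least 1 library was 9.48%. Another 3 were lower in GFP-high cells and not called, *Krt5* (9667 and 10422 FPKM), *Krt14* (6672 and 9635 FPKM) and *Trp63* (277.7 and 358.9 FPKM). On the TPM scale 1 marker was called higher in GFP-low cells. All 7 were abundant in both populations, with *Krt13* at 30523 and 9738 FPKM. *Sox2*, by which the cells were sorted, had 112.3 and 59.0 FPKM.

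**Figure D4:**
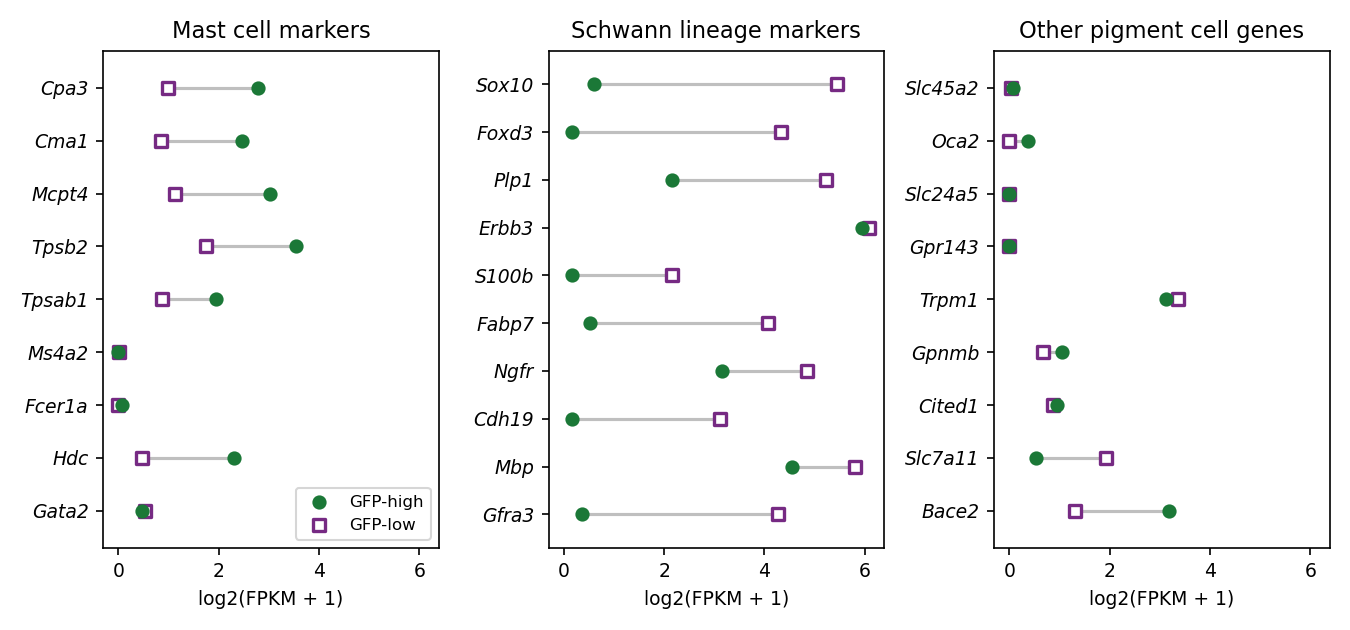
Markers of mast cells and of the Schwann lineage, and other genes with a known role in pigment cells, as log2(FPKM + 1). Filled circles are the GFP-high library and open squares the GFP-low library. Of the mast cell markers, 7 of 9 lie higher in GFP-high cells, with *Fcer1a* among them on about 1 read. The 9 sum to 35.5 against 7.0 FPKM. All 10 Schwann markers plotted lie lower in GFP-high cells, and of the genes with a role in pigment cells *Bace2* is called.

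The genes on which TFEB and TFE3 act were compared, since these factors were level between the populations. Of 34 matched lysosome and autophagy genes of the CLEAR network, whose promoters carry an E-box read by TFEB, 33 reached 5 FPKM, 3 were called higher in GFP-high and 1 higher in GFP-low cells, against 9.48% and 8.9% of all entries at that level. Of those higher in GFP-high cells, *Ctsd*, an aspartic protease, had 893.8 and 586.4 FPKM, and *Glb1*, a galactosidase, 23.4 and 15.4 FPKM. *Gusb*, a glucuronidase, had 9.67 and 15.7 FPKM. The ratios of *Ctsd* and *Glb1* were 1.52, and on the TPM scale 1 gene was called higher in GFP-high and 2 higher in GFP-low cells. *Psap*, with 588.0 and 404.9 FPKM, was the second most abundant. The median log2 ratio over the 33 genes at 5 FPKM or more was 0.17, against -0.04 over all such entries.

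Of 22 genes with numbers that hold TFE factors at the lysosome or release them, 11 were higher in each population and 1 was called. Of the 22, 19 reached 5 FPKM, and the share called among all entries at 5 FPKM or more in at least 1 library was 18.4%. *Fnip2*, a partner of folliculin, had 9.83 and 17.1 FPKM. *Flcn* itself had 20.2 and 25.4 FPKM, *Mtor* 30.4 and 35.2 FPKM, and *Lamtor2*, a subunit of the lysosomal scaffold, 168.3 and 138.6 FPKM. *Ppp3ca*, of the phosphatase calcineurin, was the most abundant in the list, with 185.6 and 160.7 FPKM. The median log2 ratio over the 19 genes at 5 FPKM or more was 0.00.

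Genes that build and move lysosome-related organelles, the class to which melanosomes belong, were expressed in both populations. Of 19, 16 reached 5 FPKM, 2 were called higher in GFP-high cells and 1 higher in GFP-low cells, a share near the 18.4% called among all entries at 5 FPKM or more in at least 1 library. *Rab27a*, which tethers melanosomes and mast cell granules to their motor, had 22.7 and 8.04 FPKM, a ratio of 2.82. *Rab32*, which delivers cargo to melanosomes, had 14.9 and 6.71 FPKM, a ratio of 2.23. Its close relative *Rab38* had 63.1 and 93.8 FPKM, the other direction, and was under the rule. *Hps3* had 7.63 and 12.3 FPKM. *Myo5a*, the myosin motor, had 62.8 and 67.4 FPKM, and *Mlph*, which links it to RAB27A, 4.01 and 3.48 FPKM. The most abundant besides *Rab38* was *Bloc1s1*, with 76.7 and 72.9 FPKM.

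**Figure D5:**
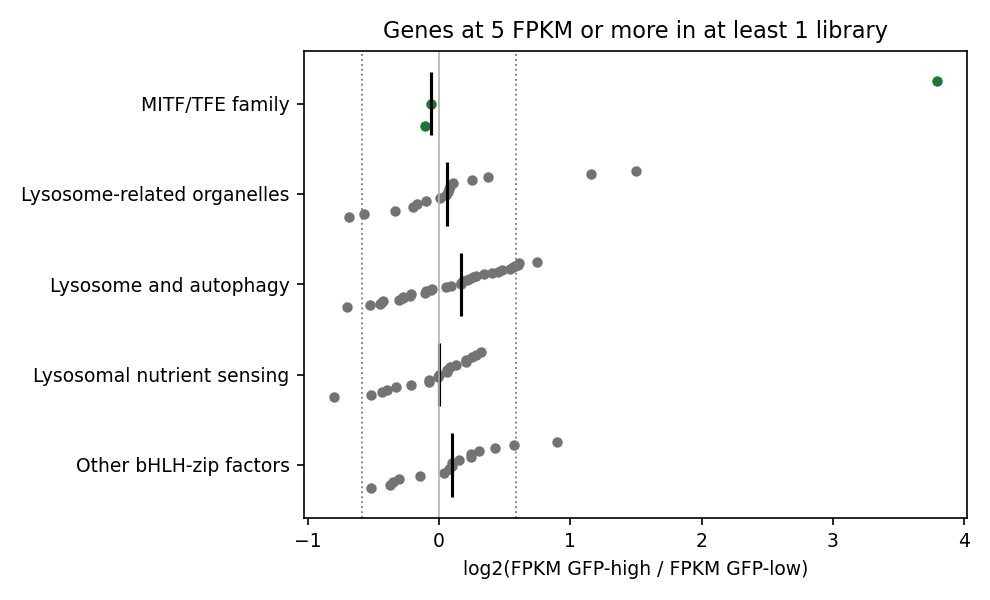
Log2 ratio of FPKM (GFP-high over GFP-low) for genes at 5 FPKM or more in at least 1 library, by list, with the list median as a black bar and 1.5-fold as dotted lines. *Mitf*, at 3.79, lies apart from the other points, and the medians of the 5 lists plotted (the MITF/TFE family, other bHLH-zip factors, lysosomal nutrient sensing, lysosome and autophagy, and lysosome-related organelles) lie between -0.06 and 0.17.

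Of 14 genes described as MITF targets outside pigmentation, 1 was called in each direction. Of the 14, 9 reached 5 FPKM. Among all entries at 5 FPKM or more in at least 1 library, 9.48% were called higher in GFP-high cells and 8.9% higher in GFP-low cells. *Acp5*, the phosphatase of osteoclasts, had 49.3 and 28.3 FPKM, and *Tbx2*, a factor that restrains senescence, had 24.1 and 42.8 FPKM. *Met* (24.4 and 24.8 FPKM) and *Cdk2* (36.1 and 42.2 FPKM) were not called, and *Bcl2* had 6.22 and 8.32 FPKM. *Cdkn1a*, the most abundant, had 608.9 and 491.8 FPKM, *Hif1a*, of the hypoxia response, 85.0 and 101.4 FPKM, and *Cdkn2a* was listed at 0 in GFP-high cells and at 0.16 FPKM in GFP-low cells. The median difference in log2(FPKM + 1) was -0.21, against -0.02 over all entries above 0 in either library.

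The 5 genes whose FPKM were nearest to those of *Mitf* in the 2 libraries, by distance in log2(FPKM + 1) among entries at 5 FPKM or more in GFP-high cells, were *Unc5a*, *Cyp27a1*, *Tspan1*, *Pex5l* and *Shh*. *Unc5a*, a netrin receptor gene, was the nearest, with 13.8 and 1.41 FPKM. *Cyp27a1*, a sterol hydroxylase gene, had 18.6 and 1.77 FPKM, and *Shh*, the hedgehog ligand, had 20.7 and 0.84 FPKM. The distances lay between 0.32 and 0.38. This likeness rests on 2 values per gene.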

How the data were processed

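RNA of 1 GFP-high and 1 GFP-low library (stranded mRNA kit, single-end reads of 50 nt) was sequenced to about 75 M reads each, per the labels. The authors trimmed reads with Trimmomatic 0.36, mapped them to mm10 with GSNAP, computed FPKM with Cufflinks 2.2.1, left out non-protein-coding genes and deposited FPKM rounded to 2 decimals. The columns are named means, and each was read as 1 library. The authors' fold column was not used. Of 21628 entries, 21 have a type other than protein-coding in GENCODE M21 and were dropped, and 17 others lacked a number in a library. GENCODE M21 holds 21442 of the 21591 identifiers, and entries with an identifier it lacks were kept.

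A call needs 5 FPKM in the enriched library and a ratio of 1.5. Alternatives were other scales (TPM, median ratio), pseudocounts (1, 0.1), FPKM minimums (1, 10, none, or 5 in each library) and 2-fold. Calls were made with Python 3.11.15 and pandas 2.3.3. The reliability of a call was not tested, since each population has 1 library. Depth was read from steps in low FPKM of genes with 1 transcript of 400 to 2500 nt (less 200 nt), as 26.9 to 27.5 M reads in GFP-high cells (53.4% of 464 values within 0.15 of whole reads) and 31.9 to 35.9 M in GFP-low cells (50.9% of 458). Read numbers are therefore approximate, serve only for low values and the exact (Clopper-Pearson) intervals, and gave no count test.

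The members and 13 further lists (181 genes) were chosen with earlier results of these data known. Named genes are the members, the called and most abundant genes of each list, genes near 0 and the 5 nearest to *Mitf*. Others, such as *Kitl*, *Edn3*, *Cma1*, *Hdc*, *Erbb3* and *Met*, were picked after their values were seen, as were the motifs CTTTGAT and TGACGTC. *Mc1r*, *Asip* and *Map1lc3b* were not matched by symbol. Shared 50-nt windows were counted in GENCODE transcripts. Of the list genes, 2 are counted in their lists but not reported here by name.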

Additional observations from a re-analysis of the deposited data

How the results depend on the processing

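*Mitf* was called higher in GFP-high cells under 8 of 9 alternatives, all of which reuse the FPKM that chose it. With 5 FPKM asked for in each library, 0 members were called higher in GFP-high cells, 633 genes in all were called higher in GFP-low cells and 8 list genes outside the members were, in place of 17. This alternative leaves out genes near 0 in a library by construction. With no minimum, 4 members (*Tfec*, *Dct*, *Tyrp1* and *Mlana*) were called higher in GFP-low cells, 3131 and 3248 genes in all were called higher in GFP-high and GFP-low cells, and of the list genes 29 and 31. With a minimum of 1 FPKM, the calls over all genes were 1540 and 1563, and no further member was called. With 2-fold, they were 448 and 467, and 8 list genes in place of 16 were called higher in GFP-high cells. With 1 added to each FPKM, the log2 ratio of *Mitf* was 3.02, and with 0.1 added or another scale it lay between 3.69 and 3.83. The TPM scale lowers every log2 ratio by 0.10 and the median ratio scale raises it by 0.04, and neither turned the direction of a member. The values of *Tfec*, *Dct* and *Tyrp1* on a log2 scale depend most on the pseudocount, since they are at under 1 FPKM. With 1 library per population no library could be left out. No paired analysis was possible because each population has 1 library.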

Other observations

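FPKM are given for GFP-high cells first. Other factors with a basic helix-loop-helix and leucine zipper, which bind E-boxes as the MITF family does, were mostly level. Of 18, 16 reached 5 FPKM and 1 was called, against 18.4% of all entries at 5 FPKM or more in at least 1 library. This was *Mxd1*, a MYC antagonist, with 19.4 and 10.4 FPKM. *Srebf1*, a regulator of lipid synthesis, had 250.2 and 211.1 FPKM, and *Myc* 159.7 and 149.3 FPKM. *Mlx* (101.0 and 68.0 FPKM) was under the rule by a small margin, at a ratio of 1.49.

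Of the other class III receptor tyrosine kinase genes, relatives of *Kit*, none reached 5 FPKM. *Pdgfra* had 1.42 and 1.46 FPKM, *Pdgfrb* 1.36 and 2.96, *Csf1r* 0.67 and 1.21, and *Flt3* was listed at 0 in both. Among their ligands, *Pdgfc* had 6.69 and 3.04 FPKM and *Flt3l* 15.3 and 34.1 FPKM, and both were called, in opposite directions. *Pdgfa*, the most abundant ligand gene, had 152.0 and 192.3 FPKM. *Pdgfra* is also the nearest neighbour of *Kit* upstream on the chromosome among entries analyzed, 376.7 kb away, and *Kdr* the nearest downstream, 276.1 kb away, with 1.30 and 0.73 FPKM. *Kit* had a higher FPKM than these nearest neighbours in both populations.

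The genes that flank *Mitf* among entries analyzed did not share its difference. *Frmd4b*, 189.5 kb upstream, had 24.1 and 35.5 FPKM, the opposite direction, and *Gm765*, 214.4 kb downstream, was listed at 0 in both. *Foxp1*, 904.0 kb downstream, had 98.6 and 70.3 FPKM, a ratio of 1.40. These neighbours were chosen by position after the values of *Mitf* had been seen.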
